A study of Homo sapiens with 6 samples.

Results

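The genes of the death receptor and caspase-8 pathway were followed in A375, an established human melanoma cell line. They are 10 named genes of 58523 annotated genes: the receptors TNFRSF10A, TNFRSF10B, FAS, TNFRSF1A and TNFRSF12A, the decoy receptors TNFRSF10C and TNFRSF10D, the adaptor FADD, the protease CASP8 and its regulator CFLAR. They were taken by name, whatever their values. RNA was measured by Illumina sequencing in 3 Treated cultures (replicates 4 to 6), given the enzyme hMGL for 24 h, and in 3 Control cultures (replicates 1 to 3), left untreated. hMGL is a human enzyme engineered to degrade methionine. All 6 cultures are of this single line and are labelled as independent. The comparison asks how the mRNAs of this pathway differ between hMGL-treated and untreated cells.

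Death receptors are membrane proteins of the TNF receptor superfamily. When their ligands (TRAIL, Fas ligand, TNF) bind, the receptors that carry a death domain recruit the adaptor FADD, directly or through TRADD. FADD gathers procaspase-8, which cuts itself into the active protease and then activates executioner caspases. CFLAR encodes c-FLIP, a relative of caspase-8 that enters the same complex; its long form has a caspase-like part without protease activity, and its short forms consist mainly of the death effector domains that bind FADD and caspase-8. Decoy receptors bind TRAIL but lack a complete death domain. The data are mRNA levels and do not show whether the complex formed or caspase-8 was active.

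The 6 libraries held 50760266 to 59954677 estimated counts, and their log CPM (counts scaled to a common library size by TMM) correlated at 0.996 to 0.997 for library pairs of a group and at 0.955 to 0.957 for pairs across groups; the points are genes, so no p is given. Of 10 melanocyte and melanoma marker genes, 6 exceeded 1 CPM in all libraries; SOX10, a neural crest transcription factor, stood at 345.7 to 357.5 CPM in Treated cells and 395.7 to 453.3 CPM in Control cells. The pigment genes TYR and DCT stayed under 1 CPM in all 6 libraries. PMEL was higher in Treated cells, at 1.97 to 2.16 CPM against 0.511 to 0.610 CPM in Control cells. AXL was also higher, at 438.6 to 448.1 CPM against 417.2 to 423.7 CPM. S100B was lower in Treated cells, at 4.89 to 7.07 CPM against 37.7 to 39.3 CPM in Control cells. So were S100A1 (36.2 to 37.9 against 64.7 to 74.6 CPM) and MITF (41.0 to 41.7 against 42.0 to 45.7 CPM). MLANA was lower too, and SOX9 overlapped. The leukocyte marker PTPRC was at most 0.169 CPM in Treated cells and 0.208 CPM in Control cells. The summed levels of the 5 immune markers were 2.63 to 3.24 CPM in Treated cells and 6.77 to 7.96 CPM in Control cells, most of it from LYZ, at 1.99 to 2.58 CPM in Treated cells and 6.42 to 7.70 CPM in Control cells. CD14 and CD3E were higher in Treated cells, at 0.359 to 0.512 and 0.0941 to 0.102 CPM, against 0.0727 to 0.303 and 0 to 0.0189 CPM in Control cells. The sums of the 3 endothelial markers were 2.51 to 2.80 CPM in Treated cells and 0.871 to 1.53 CPM in Control cells, those of the 4 epithelial markers, nearly all from KRT18, were 323.5 to 331.4 CPM in Treated cells and 338.0 to 355.5 CPM in Control cells, and those of the 4 fibroblast markers were 3.52 to 4.06 CPM in Treated cells and 11.7 to 13.7 CPM in Control cells, with COL3A1 at 0 in all Treated libraries. Their part in the results was not tested.

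In treated cells 7 of the 10 genes rose, 1 fell and 2 did not pass the test. TNFRSF10B and TNFRSF12A rose 2.85-fold each, FADD 1.87-fold, FAS 1.44-fold, CASP8 1.28-fold and TNFRSF10A 1.20-fold. The decoy receptor TNFRSF10D also rose, at a level under 1 CPM. TNFRSF1A fell, being 1.94-fold higher in Control cells. The test was edgeR's quasi-likelihood F test with Benjamini-Hochberg adjustment over all 22580 genes tested, and a call is an adjusted p under 0.05. In this experiment 69.4% of all genes tested were called, 34.9% as higher and 34.5% as lower, so a call alone sets no gene apart. The groups did not overlap for 9 of the 10 genes, against 73.3% of all genes tested; 8 of these lay higher in Treated cells (36.7% of all genes) and 1 lower (36.5% of all genes). The median log2 fold change was 0.49 over the 10 genes and -0.02 over all genes tested. All 10 genes passed the filter on low counts.

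**Figure D1:**
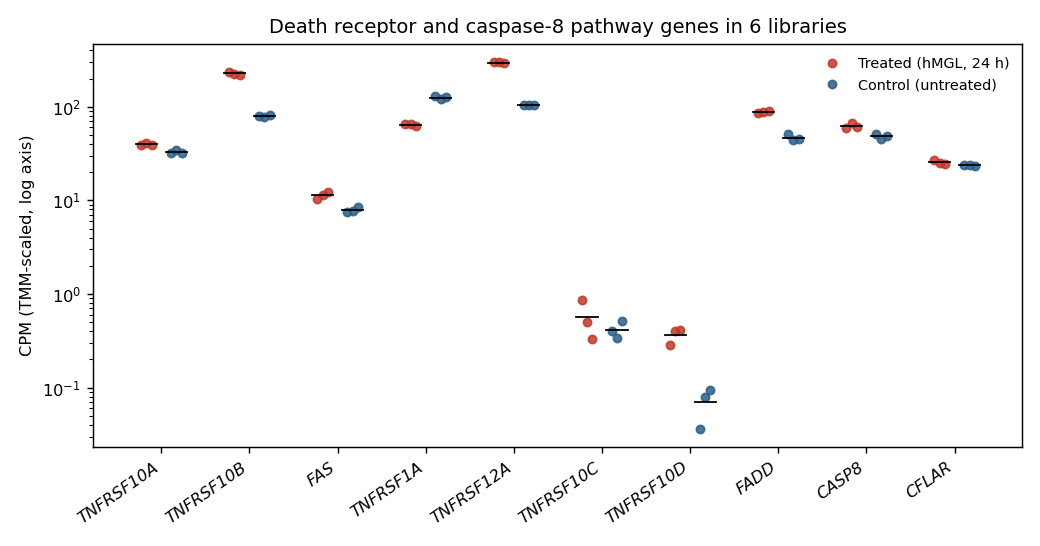
CPM (TMM-scaled, log axis) of the 10 genes in each of the 3 Treated (red, left) and 3 Control (blue, right) libraries; the black lines are group means. TNFRSF12A and TNFRSF10B sit highest in Treated cells, TNFRSF1A alone has its Treated points below its Control points, and the decoys TNFRSF10C and TNFRSF10D lie under 1 CPM in all libraries.

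TNFRSF10B encodes DR5, a receptor that binds TRAIL and carries a death domain. It had 236.5, 224.8 and 220.7 CPM in Treated libraries, against 78.8, 78.5 and 81.8 CPM in Control libraries. Every Treated library lay far above every Control library. The log2 fold change was 1.51 ± 0.03 (SE; edgeR adjusted p = 8.5e-17). In bulk RNA, a change in the number of cells that hold a transcript and a change in RNA per cell cannot be told apart. The gene lies on chromosome 8 at 23020133 to 23069179 on the minus strand (GRCh38, GENCODE 29), beside the other TRAIL receptors. Of its 8 annotated transcripts, all tested, 4 rose and 4 did not pass, and none fell. Over all 83015 transcripts tested, 17.5% were called higher and 15.2% lower. The main coding transcript, TNFRSF10B-201 with 440 codons, had 176.2, 172.0 and 170.8 CPM in Treated libraries and 54.0, 53.5 and 56.3 CPM in Control libraries (log2 fold change 1.66 ± 0.03, edgeR adjusted p = 2.6e-06). TNFRSF10B-207, annotated as a target of nonsense-mediated decay, averaged 36.7 ± 3.16 CPM in Treated cells and 13.1 ± 1.17 CPM in Control cells (SD, n = 3 each).

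TNFRSF10A encodes DR4, the other TRAIL receptor with a death domain. It had 39.1, 41.1 and 39.5 CPM in Treated libraries, against 32.4, 34.7 and 32.4 CPM in Control libraries. The groups did not overlap, but the gap was small: the log2 fold change was 0.27 ± 0.04 (SE; edgeR adjusted p = 1.1e-05). When a fold of at least 1.5 was required, TNFRSF10A no longer passed. Its main coding transcript, TNFRSF10A-201 with 468 codons, averaged 33.2 ± 0.87 CPM in Treated cells and 29.1 ± 2.14 CPM in Control cells and did not pass by itself (edgeR adjusted p = 0.071). The 75-codon transcript TNFRSF10A-203 rose (log2 fold change 1.42 ± 0.33, adjusted p = 0.021). Transcript usage of the gene differed (edgeR diffSpliceDGE adjusted p = 0.0195), as it did for 34.4% of the genes with at least 2 transcripts tested. The antisense transcript TNFRSF10A-DT, whose reads could in part be counted for TNFRSF10A because it is not given whether the libraries keep strand, stood at 4.77 to 5.42 CPM in Treated cells and 1.496 to 2.82 CPM in Control cells.

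The ratio of both TRAIL death receptors within a library does not depend on library scaling. On the TPM scale, which divides by transcript length, TNFRSF10B stood at 2.68, 2.24 and 2.54 times TNFRSF10A in Treated libraries, against 1.26, 1.22 and 1.07 times in Control libraries. The Treated ratios all lay above the Control ratios, by 1.07 on the log2 scale. An exact two-sided permutation test gave p = 0.1, the smallest that 3 against 3 libraries allow, and 0.15 after adjustment over the 3 ratios compared. DR5 mRNA was thus the more abundant in both groups and by more in Treated cells.

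TNFRSF12A encodes Fn14, the receptor for TWEAK, which binds TRAF proteins and has no death domain. It had 298.2, 297.1 and 291.0 CPM in Treated libraries, against 104.0, 103.6 and 103.8 CPM in Control libraries. Within each group the libraries lay within a few percent of each other, and the groups lay far apart. The log2 fold change was 1.51 ± 0.03 (SE; edgeR adjusted p = 1.0e-17). The gene is on chromosome 16 at 3018445 to 3022383, plus strand. Of its 6 transcripts tested 5 rose, against 17.5% of all transcripts tested. TNFRSF12A-201 with 129 codons held most of the counts, at 180.5 ± 5.35 CPM in Treated cells and 59.2 ± 1.80 CPM in Control cells. The gene for its ligand, TNFSF12 (TWEAK), moved the other way, with 0.546, 0.578 and 0.553 CPM in Treated libraries and 0.727, 0.965 and 1.00 CPM in Control libraries. TNFSF12 fell by 0.68 on the log2 scale (edgeR adjusted p = 0.014), at a level near 1 CPM. It no longer passed in 5 of the other settings, where its adjusted p was 0.053 to 0.32, among them without Control replicate 3 (0.057) and without Treated replicate 4 (0.053).

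FAS encodes the receptor for Fas ligand. It had 10.3, 11.5 and 12.3 CPM in Treated libraries, against 7.503, 7.64 and 8.50 CPM in Control libraries. All Treated libraries lay above all Control libraries, and the log2 fold change was 0.53 ± 0.08 (SE; edgeR adjusted p = 2.0e-05). The gene, at 88990582 to 89015785 on the plus strand of chromosome 10, has 20 annotated transcripts. Coding transcripts held only 28.5% to 40.8% of its estimated counts in Treated libraries and 23.8% to 36.0% in Control libraries. Most of the rest went to the processed transcript FAS-220. Among the 8 transcripts tested, FAS-202, with 233 codons, rose (3.01, 1.11 and 2.36 CPM in Treated libraries against 0.233, 0.336 and 0.433 CPM in Control libraries; edgeR adjusted p = 0.0070). The other 7 did not pass. Among them was FAS-204, the longest coding transcript with 335 codons, at 0.475, 0.424 and 0 CPM in Treated libraries and 0.717, 0.829 and 0.0752 CPM in Control libraries. The smooth muscle actin gene ACTA2 overlaps FAS on the opposite strand and stood at 2.95 to 3.43 CPM in Treated cells and 4.36 to 4.58 CPM in Control cells.

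TNFRSF1A, which encodes TNF receptor 1, the main death-domain receptor for TNF, went against the others. It had 65.9, 65.5 and 62.3 CPM in Treated libraries, against 129.5, 120.2 and 125.9 CPM in Control libraries. Every Treated library lay below every Control library. It fell by 0.96 ± 0.04 on the log2 scale (edgeR adjusted p = 1.0e-13). The gene lies on chromosome 12 at 6328757 to 6342114, minus strand. Of 12 transcripts tested 4 fell, 8 did not pass and none rose, while 15.2% of all transcripts tested fell and 17.5% rose. The 455-codon transcript TNFRSF1A-201 averaged 34.1 ± 1.66 CPM in Treated cells and 69.8 ± 7.12 CPM in Control cells.

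**Figure D2:**
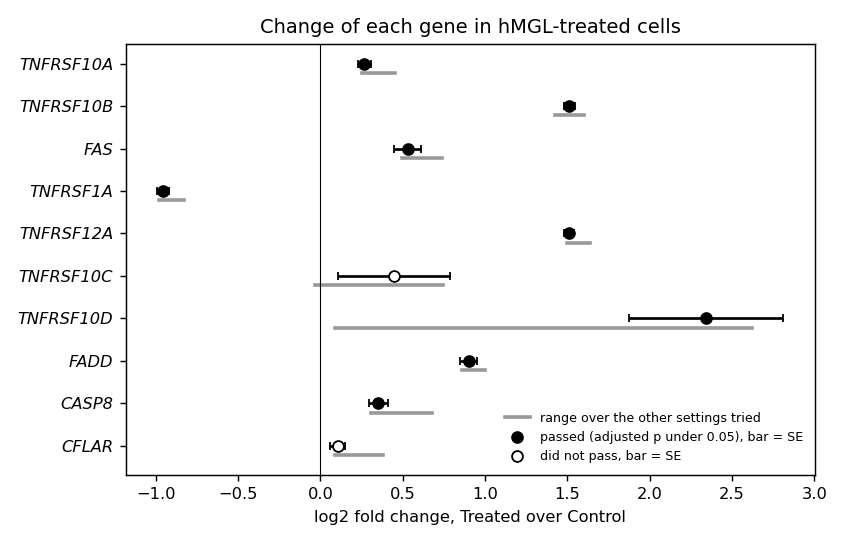
Log2 fold change (Treated over Control) of each gene from edgeR with its standard error; filled points passed at an adjusted p under 0.05, open points did not, and grey bars give the range over the other settings tried. TNFRSF10B and TNFRSF12A stand at 1.51, TNFRSF1A at -0.96, and the range of TNFRSF10C crosses 0.

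Both decoy receptors were scarce. TNFRSF10D (DcR2), which has a truncated death domain, had 15, 20 and 20 counts in Treated libraries, against 2, 4 and 5 counts in Control libraries. In CPM these were 0.282, 0.398 and 0.409 in Treated libraries and 0.0363, 0.0788 and 0.0947 in Control libraries. The summed counts were 55 in Treated and 11 in Control libraries, a ratio per total count of 5.49 (95% exact interval 2.84 to 11.6, counting error only). The log2 fold change was 2.34 ± 0.47 (SE; edgeR adjusted p = 2.4e-04). TNFRSF10C (DcR1), which is anchored in the membrane by a lipid and has no death domain, had 0.865, 0.498 and 0.327 CPM in Treated libraries and 0.400, 0.335 and 0.511 CPM in Control libraries. Its groups overlapped, it did not pass (log2 fold change 0.45 ± 0.34, edgeR adjusted p = 0.26), and its direction turned with the scale: it was -0.03 with an offset for effective length. A noncoding gene on the same strand, ENSG00000284948, overlaps TNFRSF10C and stood at 4.53 to 4.81 CPM in Treated cells and 3.38 to 3.46 CPM in Control cells.

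The 4 TRAIL receptor genes are paralogs within 1 cluster on chromosome 8, with TNFRSF10C at 23102590 to 23117437, TNFRSF10D at 23135588 to 23164030 and TNFRSF10A at 23190452 to 23225126, but their transcripts can largely be told apart. Of stretches of 31 bases, the length kallisto compares by default, TNFRSF10C shared 1.64% with TNFRSF10D, the highest share of any pair. DR5 outnumbered the decoys in all libraries. On the TPM scale TNFRSF10B stood at 140.5, 189.9 and 242.1 times the sum of TNFRSF10C and TNFRSF10D in Treated libraries, against 118.2, 50.7 and 92.0 times in Control libraries. These groups did not overlap and differed by 1.18 on the log2 scale (exact permutation p = 0.1, adjusted over the 3 ratios 0.15), with the divisor resting on few counts. In Control replicate 2, TNFRSF10C-203, a retained intron with 4.84 counts, gave 0.292 of the 0.382 TPM of TNFRSF10C. With coding transcripts alone the groups would overlap. Treated replicate 4 then had 39.9 TPM of TNFRSF10B against 0.380 and 0.0646 TPM of the decoys. Control replicate 2 had 10.9 TPM against 0.0900 and 0.0163 TPM.

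FADD encodes the adaptor that links the receptors to caspase-8. It had 85.4, 87.9 and 89.0 CPM in Treated libraries, against 51.2, 43.7 and 45.4 CPM in Control libraries. The lowest Treated library was well above the highest Control library. The log2 fold change was 0.90 ± 0.05 (SE; edgeR adjusted p = 7.9e-09). FADD has 1 annotated transcript, on chromosome 11 at 70203163 to 70207390, so its value does not depend on how reads were shared between isoforms.

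CASP8 encodes the initiator caspase. It had 58.9, 67.0 and 60.0 CPM in Treated libraries, against 50.9, 45.5 and 49.2 CPM in Control libraries. The groups did not overlap, and the log2 fold change was 0.35 ± 0.06 (SE; edgeR adjusted p = 1.3e-04). The gene spans 201233443 to 201287711 on the plus strand of chromosome 2 and has 19 annotated transcripts. A large part of its counts went to CASP8-220, a processed transcript without a coding sequence, at 32.1 ± 0.55 CPM in Treated cells and 27.7 ± 0.69 CPM in Control cells. Coding transcripts held 43.2% to 49.1% of the gene's counts in Treated libraries and 34.7% to 39.9% in Control libraries. When noncoding transcripts were left out, the log2 fold change of CASP8 was 0.67.

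Among the 11 CASP8 transcripts tested 5 rose and none fell, while 17.5% of all transcripts tested rose and 15.2% fell. CASP8-207, with 464 codons, had 7.93, 8.72 and 9.36 CPM in Treated libraries and 2.26, 2.61 and 0.489 CPM in Control libraries (log2 fold change 2.28 ± 0.59, edgeR adjusted p = 0.032). That call was lost without Control replicate 1, without Control replicate 2 and without each Treated replicate, with adjusted p from 0.055 to 0.085. CASP8-203 encodes the same number of codons and varied from 0 to 4.73 CPM in Treated libraries and from 0 to 1.24 CPM in Control libraries. The longest coding transcript, CASP8-205 with 538 codons, averaged 7.19 ± 0.22 CPM in Treated cells and 6.75 ± 1.09 CPM in Control cells and did not pass (edgeR adjusted p = 0.67). Usage of CASP8 transcripts did not pass either (diffSpliceDGE adjusted p = 0.099).

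CFLAR as a whole changed little, while its isoforms moved in opposite directions. The gene had 26.8, 25.02 and 24.4 CPM in Treated libraries, against 23.7, 24.0 and 23.2 CPM in Control libraries. The groups did not overlap but lay close together (log2 fold change 0.10 ± 0.05, edgeR adjusted p = 0.057). The call turned on the scaling and the test. DESeq2 with its own size factors and Wald test gave a log2 fold change of 0.11 with an adjusted p of 0.12. In edgeR with DESeq2's type of size factors (RLE) the log2 fold change was 0.11 with an adjusted p of 0.038. With library totals alone it was 0.18 with an adjusted p of 0.0073. Without Treated replicate 5 it was 0.15 (adjusted p = 0.024), and without Treated replicate 6 it was 0.16 (adjusted p = 0.012).

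CFLAR lies in the same cluster as CASP8 on chromosome 2, at 201116104 to 201176687 on the plus strand, and has 24 transcripts in GENCODE 29. CFLAR-201 encodes the long form with 480 codons over 9 coding exons. CFLAR-203 encodes the short form with 221 codons, of which 202 are shared with CFLAR-201 and 19 are its own. CFLAR-206 encodes 250 codons, of which 174 are shared with CFLAR-201 and 76 are its own. Its last exon of 3680 bases, at 201136198 to 201139877, lies within an intron of CFLAR-201. The coding sequences where these isoforms part are shown here because they set the coding products apart. The counts are not tied to these stretches: the last exons, with 12853 bases in CFLAR-201 and 3680 bases in CFLAR-206, are far longer. Lower case marks the 30 bases shared with the partner isoform, and capitals mark what follows the point where they part. All are from GENCODE 29 on GRCh38, plus strand, chromosome 2, written 5′ to 3′, and the last base shown of CFLAR-203 ends its stop codon.
CFLAR-206 (chr2:201136078-201136287, spliced): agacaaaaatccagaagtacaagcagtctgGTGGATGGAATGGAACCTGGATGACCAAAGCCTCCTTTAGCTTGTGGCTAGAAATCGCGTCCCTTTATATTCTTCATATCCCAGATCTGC
CFLAR-201 (chr2:201136078-201140401, spliced): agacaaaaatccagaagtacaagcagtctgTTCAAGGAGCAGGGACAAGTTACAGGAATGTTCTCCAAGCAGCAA
CFLAR-203 (chr2:201140410-201141433, spliced): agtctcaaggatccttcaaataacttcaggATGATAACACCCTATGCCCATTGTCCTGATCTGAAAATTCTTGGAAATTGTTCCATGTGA
CFLAR-201 (chr2:201140410-201145422, spliced): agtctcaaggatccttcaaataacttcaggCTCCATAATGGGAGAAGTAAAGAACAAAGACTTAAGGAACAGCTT

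The main long-form transcript, CFLAR-201, fell. CFLAR-201 had 12.2, 11.05 and 10.7 CPM in Treated libraries, against 16.2, 17.4 and 16.5 CPM in Control libraries. No Treated library reached the lowest Control library, and the transcript fell by 0.56 ± 0.08 on the log2 scale (SE; edgeR adjusted p = 0.0030 over 83015 transcripts tested, of which 32.7% were called). On the log2(TPM + 1) scale in limma the fall was 0.21 with an adjusted p of 0.15. CFLAR-208 also has 480 codons and was under 1 CPM in all libraries. It did not pass (log2 fold change 0.34, edgeR adjusted p = 0.69). Summed over both transcripts, the TPM was 0.878, 0.639 and 0.715 in Treated libraries. In Control libraries it was 1.01, 1.00 and 0.861, so these groups overlapped. Their summed estimated counts were 663.2, 555.0 and 537.5 in Treated libraries and 923.2, 887.7 and 888.5 in Control libraries, without overlap.

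CFLAR-206 rose. It had 10.6, 10.9 and 10.99 CPM in Treated libraries, against 3.98, 3.81 and 3.74 CPM in Control libraries. The libraries of each group were tightly placed and the groups lay far apart (log2 fold change 1.49 ± 0.08, edgeR adjusted p = 8.1e-05). The estimated counts of CFLAR-206 were 0.870, 0.982 and 1.03 times those of CFLAR-201 in Treated libraries, against 0.246, 0.220 and 0.227 times in Control libraries. Per length, on the TPM scale, CFLAR-206 stood at 2.13, 2.40 and 2.51 times CFLAR-201 in Treated libraries, against 0.602, 0.538 and 0.556 times in Control libraries. Both transcripts thus drew about equal counts in treated cells, where the shorter CFLAR-206 was the more abundant per length, while CFLAR-201 was ahead on both scales in untreated cells.

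**Figure D3:**
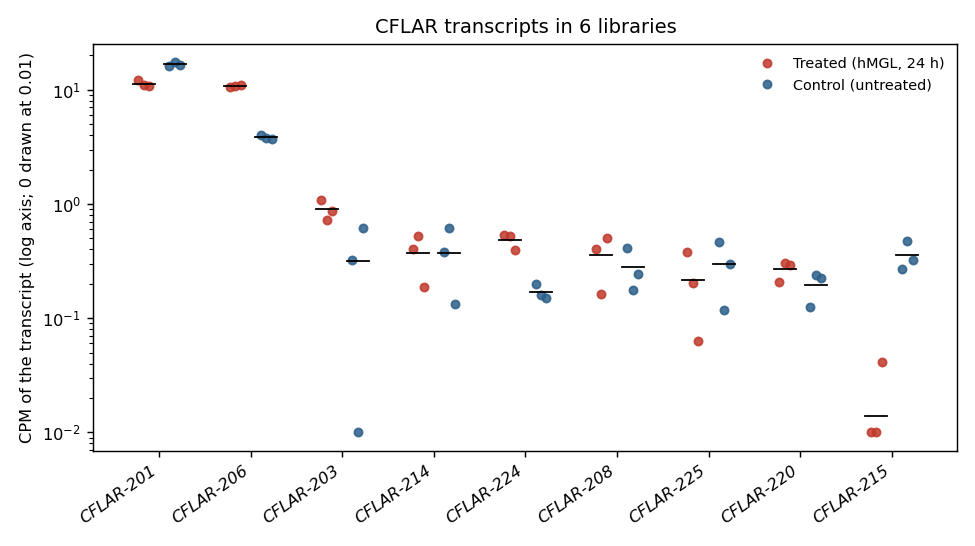
CPM of the 9 CFLAR transcripts tested, on a log axis, in each Treated (red, left) and Control (blue, right) library; black lines are group means and values of 0 are drawn at 0.01. CFLAR-201 is lower in Treated cells, CFLAR-206 is higher at 10.6 to 10.99 CPM against 3.74 to 3.98 CPM, and the remaining transcripts lie near or under 1 CPM.

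The classical short form stayed at a low level. CFLAR-203 had 1.08, 0.727 and 0.876 CPM in Treated libraries and 0.323, 0 and 0.621 CPM in Control libraries. Its groups did not overlap, but the spread was wide and it did not pass (log2 fold change 1.499 ± 1.11, edgeR adjusted p = 0.37). None of its stretches of 31 bases was free of other CFLAR transcripts, so its value rests on how kallisto shared reads. Of the 9 CFLAR transcripts tested, 2 rose, 2 fell and 5 did not pass, beside 17.5% higher and 15.2% lower over all transcripts tested. The others called were CFLAR-224, a processed transcript (log2 fold change 1.51, adjusted p = 0.017), and CFLAR-215, with 462 codons (-4.49, adjusted p = 0.019), both under 1 CPM in all libraries. Without 1 replicate each of these calls was lost in some cases: for CFLAR-224 without Control replicates 2 and 3 and Treated replicates 4 and 5, with adjusted p of 0.063 to 0.066, and for CFLAR-215 without each replicate except Treated replicate 6, with adjusted p of 0.057 to 0.083.

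Transcript usage of CFLAR differed between the groups (edgeR diffSpliceDGE adjusted p = 2.9e-04), as it did for 34.4% of the 12738 genes with at least 2 transcripts tested. In 12.8% of those genes at least 1 transcript was called higher and 1 lower, as in CFLAR. The transcripts with 480 codons took 46.6%, 44.2% and 45.01% of the CFLAR counts in Treated libraries and 70.9%, 72.8% and 72.4% in Control libraries. CFLAR-206 took 39.2%, 42.8% and 44.1% in Treated libraries and 17.02%, 15.8% and 16.2% in Control libraries. Per length, on the TPM scale, CFLAR-206 took 24.3% ± 2.68 in Treated cells and 10.7% ± 0.28 in Control cells, and the 480-codon class took 12.4% ± 1.27 in Treated cells and 21.0% ± 0.84 in Control cells (SD, n = 3 each; exact permutation p = 0.1 for each, the smallest possible). The largest class on the TPM scale, and the one whose share differed most, was that of the 12 other coding transcripts, with 37.2% ± 3.14 of the CFLAR TPM in Treated cells and 54.9% ± 3.36 in Control cells. The 7 noncoding transcripts held 16.5% ± 0.29 in Treated cells and 6.58% ± 1.72 in Control cells, and the 221-codon class 9.54% ± 1.12 in Treated cells and 6.81% ± 2.85 in Control cells, with overlap. The shares per length were thus not a simple exchange of the 480-codon class for CFLAR-206.

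**Figure D4:**
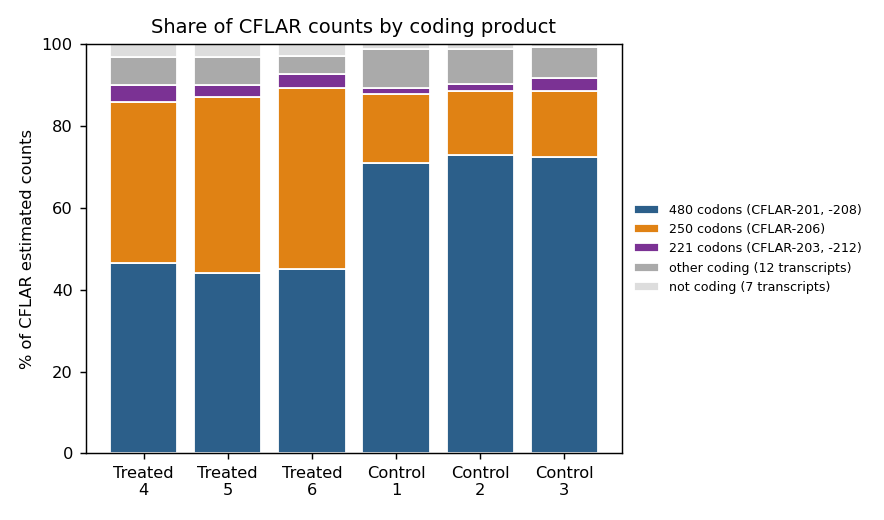
Share of the CFLAR estimated counts (percent) held by each class of coding product in the 3 Treated libraries (left) and the 3 Control libraries (right). The 480-codon class holds 44.2% to 46.6% in Treated and 70.9% to 72.8% in Control libraries, and CFLAR-206 holds 39.2% to 44.1% in Treated and 15.8% to 17.02% in Control libraries.

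The files hold no read positions, so where along CFLAR-206 its counts fall was not tested. Of its 4385 stretches of 31 bases, 3463 (79.0%) occur in no other CFLAR transcript. Of these, 1845 occur in transcripts of other genes and 1618 in no other transcript of GENCODE 29. The pseudogene IMPDH1P10 on the opposite strand, at 201137516 to 201140027, overlaps 2362 bases of that exon and shares 1460 of the 3463. IMPDH1P10 stood at 0.226 to 0.737 CPM in Treated cells and 0 to 0.0788 CPM in Control cells, far under CFLAR-206, and its parent gene IMPDH1, which shares 219 of them, at 77.1 to 80.8 CPM in Treated cells and 111.1 to 121.2 CPM in Control cells. Since the exon lies in an intron of the long form, reads from unspliced CFLAR RNA would also fall there, and the share of such reads was not tested. For CFLAR-201, 12433 stretches occur in no other CFLAR transcript, and 2389 of these occur in transcripts of 7378 other genes. Whether reads of those genes were counted for CFLAR-201 was not tested. The index behind the files may differ from GENCODE 29: CFLAR-201 has 14612 bases in the files and 14672 in GENCODE 29, while CFLAR-203 and CFLAR-206 have the same length in both.

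The balance of CASP8 against CFLAR depended on which transcripts were counted. On the TPM scale CASP8 stood at 5.30, 6.57 and 6.63 times CFLAR in Treated libraries, against 4.78, 4.75 and 5.52 times in Control libraries. These groups overlapped (difference 0.29 on the log2 scale, exact permutation p = 0.2, also 0.2 after adjustment over the 3 ratios). With coding transcripts alone the ratios were 3.71, 4.69 and 4.501 in Treated libraries and 2.32, 2.04 and 2.48 in Control libraries, without overlap, a difference of 0.91 on the log2 scale.

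Per length, the order of the pathway differed between the groups. In Treated cells the mean TPM ran from TNFRSF12A (166.9) over TNFRSF10B (55.3), CASP8 (36.6), TNFRSF1A (34.5), FADD (30.3), TNFRSF10A (22.3), FAS (8.07) and CFLAR (6.02) to TNFRSF10C (0.234) and TNFRSF10D (0.0761). The ranges of CASP8 and TNFRSF1A, and of TNFRSF1A and FADD, overlapped over the 3 Treated libraries. In Control cells it ran from TNFRSF1A (62.1) over TNFRSF12A (53.7), CASP8 (22.8), TNFRSF10B (19.1), TNFRSF10A (16.2), FADD (15.2), FAS (5.21) and CFLAR (4.58) to TNFRSF10C (0.238) and TNFRSF10D (0.0137). Here TNFRSF10A and FADD overlapped. These sums take in noncoding transcripts. On them TNFRSF1A, first of the 10 in Control cells, was the fourth in Treated cells, and CFLAR stood below FADD and CASP8 in both. The noncoding TNFRSF1A-215 alone had 37.8, 38.2 and 35.4 TPM in Control libraries. With coding transcripts alone TNFRSF1A was not first in Control libraries, at 20.1, 19.6 and 16.4 TPM against 52.6, 52.8 and 46.3 TPM for TNFRSF12A. In Treated libraries coding TNFRSF1A had 12.1, 10.1 and 9.25 TPM. Other places changed too. Coding FAS, at 3.29, 3.29 and 2.82 TPM in Treated and 2.41, 1.81 and 1.82 TPM in Control libraries, lay below coding CFLAR in each. Coding CFLAR had 6.04, 4.70 and 4.34 TPM in Treated and 4.72, 4.28 and 3.83 TPM in Control libraries. Coding CASP8, at 22.4, 22.1 and 19.6 TPM in Treated and 10.96, 8.72 and 9.51 TPM in Control libraries, lay below FADD in each. FADD had 32, 29.6 and 29.5 TPM in Treated and 17.03, 14.9 and 13.6 TPM in Control libraries.

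Genes nearest by pattern were sought among protein-coding genes tested whose symbols hold only capitals, digits and hyphens. They were ZNF765 for TNFRSF10B (0.0157), ZNF470 for TNFRSF12A (0.00748) and ARHGEF25 for TNFRSF1A (0.00800). The values are root mean square distances between log2 CPM centred over the 6 libraries. With 2 groups this distance mainly reflects an equal fold change.

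Of promoter windows (250 bases before to 50 after a start, RefSeq, GRCh38.p14), 12 were searched, for 5 of the 10 genes: CFLAR, CASP8, FAS, FADD and TNFRSF1A. The TRAIL receptor genes TNFRSF10A, TNFRSF10B, TNFRSF10C and TNFRSF10D were left out of the search, and no window was given for TNFRSF12A. The AP-1 site TGANTCA, which reads the same on both strands, occurred in 5 of the 12 windows, and in 7.71% of all 35116 windows of that table. It was in 2 of 3 CASP8 windows, 1 of 3 FAS windows, 1 of 4 CFLAR windows and the FADD window, and not in that of TNFRSF1A. Windows of a gene can overlap, and a match of letters is only a description. The CEBP-ATF core TGATGCAA, the CRE TGACGTCA and the E2F core TTTCCCGC, searched on both strands, were in none of the 12, against 0.866%, 1.85% and 1.63% of all windows. The CCAAT box, CCAAT, was in 2 and the SP1 box, GGGCGG, in 7 of the 12, against 34.6% and 45% of all windows. Of the AP-1 matches, the 3 that lie wholly before the start are shown with their surroundings, the match in capitals. The matches in FADD and in another CASP8 window do not lie wholly before it and are not shown.
CASP8 at chr2:201260455-201260501, plus strand: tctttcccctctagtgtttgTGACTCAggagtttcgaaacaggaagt
FAS at chr10:88990548-88990582, plus strand: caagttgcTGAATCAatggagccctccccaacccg
CFLAR at chr2:201132601-201132647, plus strand: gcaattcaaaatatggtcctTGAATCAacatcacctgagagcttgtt

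The other genes of the pathway were read from 7 lists with 84 genes, of which 73 could be tested. Of the 73, 28 (38.4%) rose, 34 (46.6%) fell and 11 did not pass, beside 34.9% higher and 34.5% lower over all genes tested; their median log2 fold change was -0.09. The ligands were nearly absent: TNFSF10 (TRAIL), FASLG, TNF and LTA had at most 8.01 counts in any library and were not tested. Of 26 receptor-proximal genes 14 rose, 9 fell and 3 did not pass. BIRC3, which encodes the ubiquitin ligase cIAP2, had 19.4, 20.1 and 21.4 CPM in Treated libraries and 1.89, 2.64 and 2.18 CPM in Control libraries (9.09-fold, edgeR adjusted p = 7.4e-14). TNFAIP3, which encodes the NF-kB inhibitor A20 and was chosen after its value was seen, had 68.8, 76.0 and 73.6 CPM in Treated libraries and 9.10, 6.99 and 8.31 CPM in Control libraries. The signalling adaptor TRAF6 and the deubiquitinase CYLD rose 2.26-fold and 2.02-fold. TRAF1, RNF31 (a subunit of the linear ubiquitin ligase) and the kinase MAP3K7 fell, by 1.49, 0.81 and 0.62 on the log2 scale.

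Of 16 other TNF receptor family genes tested 7 rose and 6 fell, beside 34.9% higher and 34.5% lower over all genes tested. NGFR, the neurotrophin receptor p75, stood at 317.1 ± 11.3 CPM in Treated cells and 106.2 ± 3.19 CPM in Control cells (SD, n = 3 each). EDA2R rose 3.34-fold and the lymphotoxin receptor gene LTBR 1.66-fold. TNFRSF1B, which encodes TNF receptor 2, fell to 0.479 ± 0.03 CPM in Treated cells, against 3.99 ± 0.32 CPM in Control cells, so both TNF receptor genes were lower. TNFRSF19 and TNFRSF21 (DR6, a death-domain receptor) fell by 2.59 and 0.81 on the log2 scale.

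Of 8 other caspases tested 3 rose and 5 fell, beside 34.9% higher and 34.5% lower over all genes tested. CASP10, the close relative of CASP8 and its neighbour in the genome, rose 1.39-fold, and CASP9, the initiator of the mitochondrial route, 1.18-fold. CASP6, an executioner caspase, fell by 1.77 on the log2 scale, and CASP2 by 0.66. CASP5 had 17, 13 and 18 counts in Treated libraries and 0 in all 3 Control libraries. Against a floor set at 3 counts over the Control group it was 16.7-fold higher. BID, the protein that caspase-8 cuts to reach the mitochondria, had 5.76, 6.67 and 6.98 CPM in Treated libraries and 18.3, 18.1 and 17.9 CPM in Control libraries (fell by 1.49 on the log2 scale, edgeR adjusted p = 3.9e-12). Of 10 mitochondrial arm and IAP genes tested 7 fell and 2 rose, beside 34.5% lower and 34.9% higher over all genes tested. Among those that fell were APAF1, the scaffold of the apoptosome, and BIRC6. The 2 that rose were CYCS (cytochrome c, 1.33-fold) and DIABLO (1.502-fold).

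Of 8 caspase substrates 6 fell and 1 rose, beside 34.5% lower and 34.9% higher over all genes tested. PARP1, a DNA repair enzyme, had 240.4, 242.8 and 238.7 CPM in Treated libraries and 637.2, 602.3 and 640.0 CPM in Control libraries. GSDMD and PAK2 fell by 0.90 and 0.65, and ROCK1 rose 1.40-fold. Of the necroptosis genes, RIPK3, the kinase that turns to necroptosis when caspase-8 is blocked, had 0 counts in all 6 libraries. A floor set at 3 counts over a group would be 0.0197 CPM in Treated and 0.0189 CPM in Control cells. MLKL averaged 35.1 ± 0.59 CPM in Treated cells and 33.8 ± 0.82 CPM in Control cells and did not pass (adjusted p = 0.20). TICAM1 rose 1.14-fold (adjusted p = 0.0093), a call that was lost in 4 of the other settings.

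**Figure D5:**
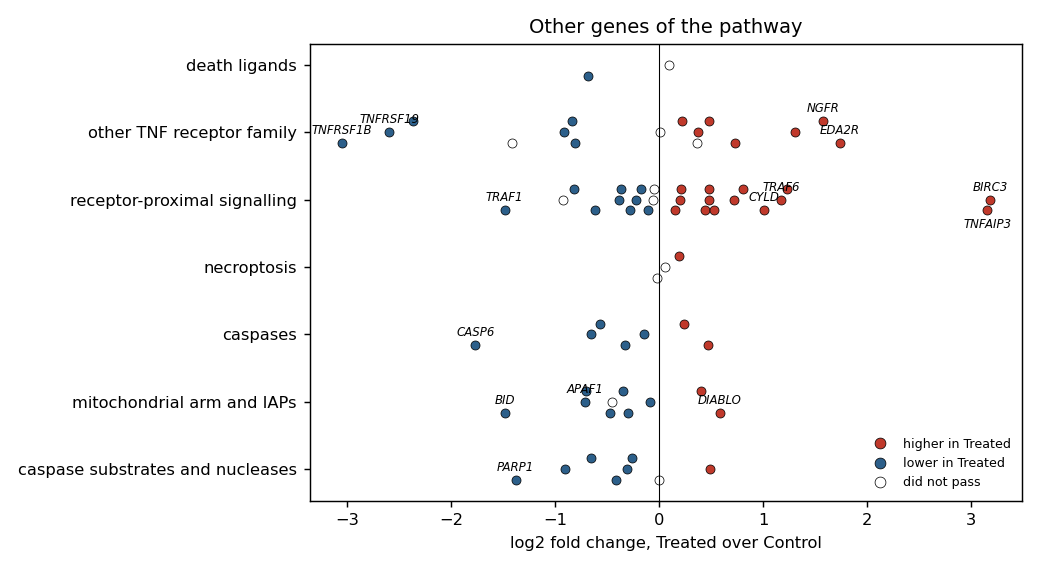
Log2 fold change (Treated over Control) of the tested genes of the 7 lists, 1 point a gene (red higher, blue lower, white did not pass); CASP5 is left out because its Control libraries are at 0. BIRC3 and TNFAIP3 lie farthest to the right, and TNFRSF1B farthest to the left at -3.05.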

How the data were processed

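RNA of 6 A375 cultures was measured. The deposited tables list 244939 transcripts a library with expected counts (estimated by the authors' software, with fractions) and TPM, per the file headers. The tools named in the submitters' processing notes are kallisto 0.45.0 and DESeq2 1.30.0. The index release, the genome build, the strand and the choice of poly(A) or ribosomal RNA removal are not given in the sources used here. Effective length exceeded length for 25.6% to 27.1% of transcripts, and 1 transcript, RN7SL1, took 18.5% to 22.1% of the TPM in Treated and 16.1% to 19.4% in Control libraries, so a TPM is a share of a total that few RNAs weigh on.

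From these, 203436 transcripts were matched by identifier to GENCODE 29 and their counts summed to genes; the other 41503, with 4.86% to 5.13% of counts, were left out. Sums were rounded. The test was edgeR 4.0.16 in R 4.3.3: filterByExpr (minimum count 10, minimum total 15), TMM, robust quasi-likelihood F test, two-sided, Benjamini-Hochberg over all genes or transcripts tested, threshold 0.05; usage by diffSpliceDGE. All adjusted p values of genes and transcripts are from edgeR unless another tool is named. Fold changes are Treated over Control and relative to the other genes of a library, not to RNA per cell. Estimated counts carry counting error and the unmeasured error of sharing reads. Alternatives were DESeq2 1.42.0, limma 3.58.1 on log2(TPM + 1) and log2(TPM + 0.1), other scalings and filters, and each replicate left out. Scripts were tested on simulated data. Exact permutation tests used SciPy 1.17.1. The 10 genes, the lists and the rule for named genes (of each list up to 3 that rose and 3 that fell, with the lowest adjusted p) were chosen with earlier results of these data known. Some genes that this rule takes are not reported here.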

Additional observations from a re-analysis of the deposited data

How the results depend on the processing

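TNFRSF10B, TNFRSF12A, FADD, TNFRSF1A and, where it passed the filter, TNFRSF10D kept their direction and call in the other settings tried: log2 fold changes spanned 1.42 to 1.60 for TNFRSF10B, 1.49 to 1.63 for TNFRSF12A, 0.86 to 1.00 for FADD, -0.98 to -0.83 for TNFRSF1A and 0.09 to 2.62 for TNFRSF10D, the lowest on the log2(TPM + 1) scale. Requiring a fold of at least 1.5 left 4 of the 10 genes higher, 12 list genes higher and 13 lower, with TNFRSF10A (0.27), FAS (0.53) and CASP8 (0.35) no longer past the threshold, and 4223 genes higher and 3764 lower in all. TNFRSF10C, not called in any setting, turned to -0.030 with the effective length offset, -0.0055 on log2(TPM + 1) and -0.028 on log2(TPM + 0.1). CFLAR passed with RLE scaling (0.11), library totals (0.18), the effective length offset (0.28), limma on log2(TPM + 1) (0.32) and on log2(TPM + 0.1) (0.38), and spanned 0.092 to 0.16 when 1 replicate was left out. It did not pass in DESeq2 (0.11, Wald test adjusted p = 0.12). CFLAR-201 changed by -0.21 and was not called with limma on log2(TPM + 1). In place of TPM, shares of estimated counts moved by -26.8 percentage points for the 480-codon class and 25.7 for CFLAR-206, against -8.54 and 13.6; with coding transcripts only CFLAR-206 moved by 17.6. The ratio of CASP8 to CFLAR differed by 0.91 with coding transcripts only, and that of TNFRSF10B to TNFRSF10A by 1.24 in estimated counts. The cause of these shifts was not tested. The stricter filter gives no value for TNFRSF10C and TNFRSF10D, whose few counts limit what can be said of them. No paired analysis was possible because the Treated and Control replicates share no number.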
